A study of Mus musculus with 2 samples.

Results

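The barcodes described here were macrophage-like cells with little RNA among GR1+ cells sorted from mouse 4T1 breast tumors, a class of 460 barcodes out of 5187 retained and 7951 deposited. A retained barcode had 500 to 5000 detected genes and at most 10% of its unique molecular identifiers (UMIs, 1 for each captured RNA molecule) on mitochondrial genes. A member had fewer than 2500 UMIs, less than 1.5% of them from the neutrophil genes S100a8 and S100a9, and at least 0.3% from the 7 macrophage genes C1qa, C1qb, C1qc, Apoe, Csf1r, Cd68 and Fn1. The comparison class was the 1314 barcodes that passed the same marker gate with 2500 UMIs or more, called deeper macrophages below.

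The study asked which myeloid cells distinguish tumors that respond to anti-PD1 from tumors that do not. 4T1P is the parental 4T1 breast carcinoma line, whose tumors did not respond to anti-PD1, and 4T1M is a mutagenized clone derived from it, whose tumors did. Both were grown in BALB/c mice of 6 to 8 weeks, and each condition was 1 droplet library of GR1+ cells pulled out with magnetic beads from tumors of 5 pooled mice, by the labels and the submitters' design text. The study's own text differs on the age of the mice and the size of the pool. No library was repeated, so no value below carries a replicate error and none was tested. Intervals are exact 95% intervals (Clopper-Pearson for shares, Poisson for levels, conditional for ratios of levels) and cover counting error only. The 4T1P library held 2947 barcodes and 21855657 UMIs and the 4T1M library 5004 barcodes and 24303957 UMIs. The libraries shared 5 barcode sequences, of which 0 belonged to members.

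Macrophages are tissue phagocytes that develop from blood monocytes or from embryonic precursors. In tumors they take up debris, make the complement starter C1q and the lipid carrier apolipoprotein E, present antigen and release chemokines and cytokines. Most messenger RNA of a cell lies in the cytoplasm, while a few long noncoding RNAs, among them Malat1, Neat1 and Xist, are kept in the nucleus. The GR1 antibody binds Ly6G of neutrophils and Ly6C of monocytes.

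Members made up 26.4% of the macrophage-gated barcodes of 4T1P (211 of 798, 23.4% to 29.7%) and 25.5% of those of 4T1M (249 of 976, 22.8% to 28.4%). Of all retained barcodes they were 12.2% in 4T1P and 7.19% in 4T1M. A UMI count under 2500 was also found among neutrophil-gated barcodes (S100a8 and S100a9 at least 5% and the 7 macrophage genes under 0.3% of UMIs), with 27.6% in 4T1P (127 of 460) and 31.2% in 4T1M (345 of 1105). The median member had 1362 UMIs and 691 detected genes in 4T1P and 1417 UMIs and 689 genes in 4T1M. The median deeper macrophage had 14312 UMIs and 3408 genes in 4T1P and 12116 UMIs and 3094 genes in 4T1M. These gaps follow from the way the classes were chosen.

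The limits on UMIs and on the 7 macrophage genes did not fall in gaps of the data, whereas no 4T1P member lay close to the S100a8 and S100a9 limit. In 4T1P the member with the most UMIs had 2494 and the shallowest deeper macrophage 2518, with 46 members within 500 UMIs below the limit and 19 barcodes within 500 above it. In 4T1M the corresponding values were 2498 and 2503 UMIs, with 33 members and 36 barcodes that close to the limit. The 7 macrophage genes took 0.307% of UMIs in the lowest 4T1P member and 0.3001% in the lowest 4T1M member, against 0.274% and 0.294% in the highest barcodes left out. The highest S100a8 and S100a9 share of a member was 0.939% in 4T1P and 1.39% in 4T1M, and the lowest share left out was 1.56% and 1.63%. Fewer than 5 UMIs of the 7 genes supported 5 of 211 members in 4T1P and 8 of 249 in 4T1M.

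The label was checked against macrophage genes that the gate did not use. Trem2, a lipid-sensing receptor of macrophages, stood at 324 CPM (counts scaled to 1000000 summed UMIs) in 4T1P members and 231 CPM in 4T1M members, against 0 and 1.51 CPM in neutrophil-gated barcodes under 2500 UMIs. Fcgr1, a high-affinity antibody receptor, was at 220 and 209 CPM against 3.98 and 12.1 CPM. Not every gene of the same list was higher in members than in low-UMI neutrophils. Cd14, a co-receptor for bacterial lipopolysaccharide, was at 758 and 677 CPM in members and 3132 and 2756 CPM in low-UMI neutrophils, and the whole list summed to 14881 and 12182 CPM in members and 11166 and 11526 CPM in those neutrophils. The 7 gate genes chose the members and so do not check the label. Apoe had a UMI in 98.6% of 4T1P and 96.4% of 4T1M members and C1qa in 91.5% and 86.7%. C1qb had one in 84.8% and 81.1% and C1qc in 85.8% and 75.5%. Fn1 had one in 58.8% and 57.4%, Cd68 in 35.5% and 34.9% and Csf1r in 28.4% and 28.1%. With each barcode thinned to 1000 UMIs, Csf1r had a UMI in 21.6% and 19.8% of members and 36.5% and 36.9% of deeper macrophages. Transcripts for the targets of the sorting antibody were nearly absent. Ly6g had 0 UMIs in members, which allows up to 9.44 CPM in 4T1P and 8.15 CPM in 4T1M, and Ly6c2, a gene for Ly6C, stood at 0 and 5.44 CPM. Scarce Ly6c2 was not particular to members. At 1000 UMIs a barcode it had a UMI in 0% and 0.472% of members and 0% and 2.20% of deeper macrophages.

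Markers of cell types other than neutrophils were few in the members. Of the T cell list, Cd3e, Cd3g, Cd8a, Cd8b1 and Lck were at 0, and the list summed to 44.0 CPM in 4T1P and 62.5 CPM in 4T1M, most of it Il7r. The B cell list summed to 25.2 and 97.9 CPM with Cd79a and Ms4a1 at 0, and the NK cell list to 9.44 and 13.6 CPM with 7 of 9 genes at 0. The tumor or epithelial list summed to 62.9 and 128 CPM, led by Lcn2, with Krt5, Krt14, Krt19 and Cldn4 at 0. Fibroblast genes summed to 9.44 and 2.72 CPM, endothelial genes to 12.6 and 19.0 CPM, eosinophil genes to 34.6 and 2.72 CPM, erythroid genes to 18.9 and 10.9 CPM, and mast cell or basophil genes to 0 in both. The conventional dendritic cell list summed to 116 and 193 CPM with Zbtb46, Flt3 and Xcr1 at 0, and the plasmacytoid list to 484 and 693 CPM, led by Irf8 in 4T1P and Bst2 in 4T1M, with Siglech at 0. The platelet list summed to 588 and 343 CPM, of which Pf4, a chemokine also made by macrophages, gave 585 and 342 CPM. Neutrophil genes summed to 1444 CPM in 4T1P and 2938 CPM in 4T1M, led by S100a9 at 475 and 919 CPM, against 1279 and 2047 CPM in deeper macrophages. At least 2 UMIs of that list were found in 33.6% of 4T1P and 61.8% of 4T1M members. Among deeper macrophages, which hold more UMIs each, the shares were 91.1% and 95.9%.

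One feature of the members is a gene that the rule did not name. Malat1, a nuclear noncoding RNA that is among the most abundant transcripts of most mammalian cells, was nearly missing from most of them. It took less than 0.3% of UMIs in 88.6% of 4T1P members (187 of 211, 83.5% to 92.6%) and in 83.1% of 4T1M members (207 of 249, 77.9% to 87.6%). Malat1 had 0 UMIs in 141 of the 4T1P members and 110 of the 4T1M members. The mitochondrial filter bears on these shares, since it left out 42 and 66 macrophage-gated barcodes under 2500 UMIs in which Malat1 stood at 41587 and 40216 CPM. The limit of 0.3% was drawn after the values were seen. It cuts a range and does not define a cell type, and 8 members of 4T1P and 11 of 4T1M lay between 0.2% and 0.5%.

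Deeper macrophages were under the same limit in 18.2% of cases in 4T1P (107 of 587, 15.2% to 21.6%) and in 11.1% in 4T1M (81 of 727, 8.95% to 13.7%). In the neutrophil gate 1 of 127 low-UMI neutrophils in 4T1P (0.787%) and 1 of 345 in 4T1M (0.290%) were under 0.3% Malat1, at median depths of 2053 and 1967 UMIs. Low-UMI barcodes that passed neither gate lay between, at 30.4% in 4T1P (28 of 92) and 7.36% in 4T1M (24 of 326).

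**Figure D1:**
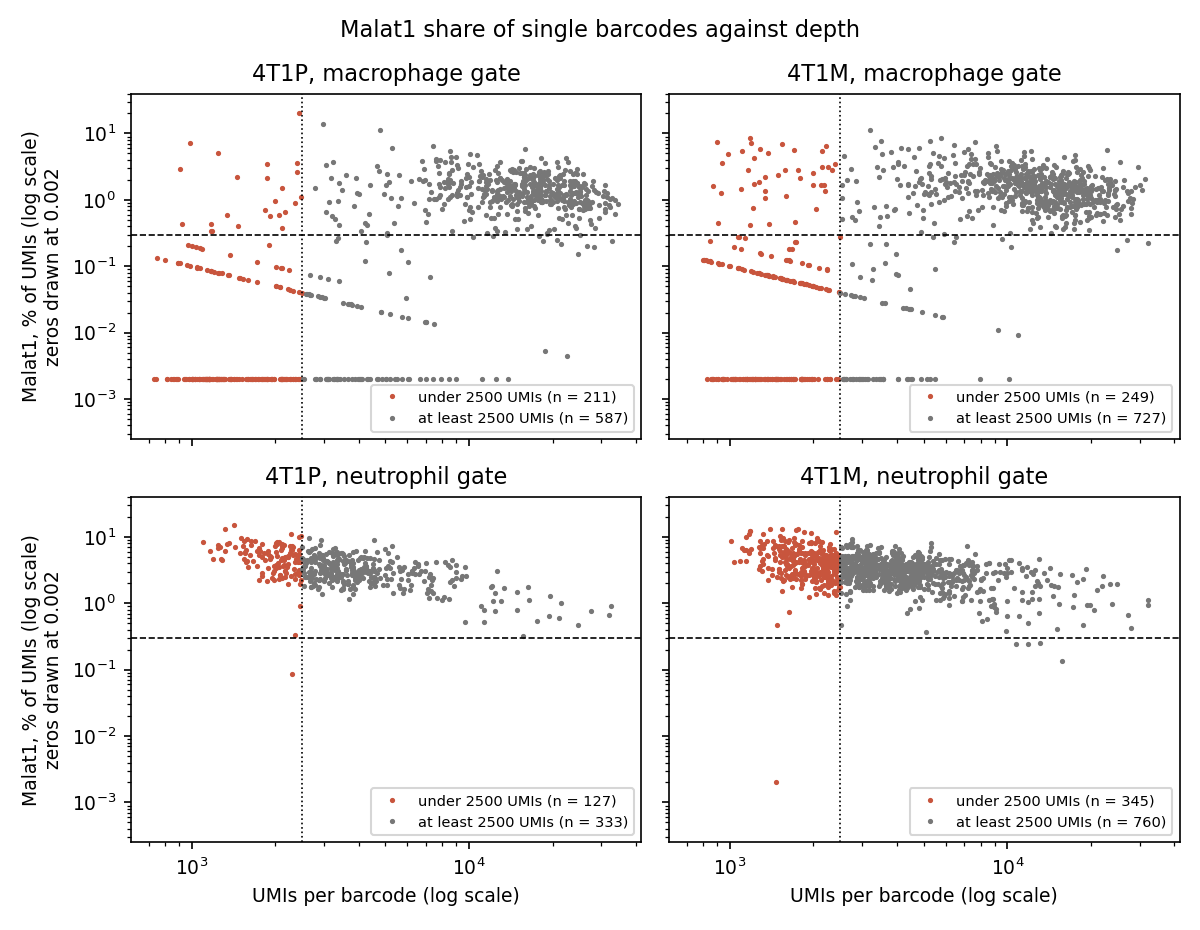
Each point is 1 barcode, with its total UMIs on the horizontal axis and the percent of those UMIs from Malat1 on the vertical axis. Both scales are log, and zeros are drawn as a row at a fixed low value. Macrophage-gated and neutrophil-gated barcodes of each library are shown. The dashed line marks 0.3% Malat1 and the dotted line 2500 UMIs: most macrophage-gated points left of the dotted line lie under the dashed one, while all but 1 neutrophil-gated point of that depth in each library lie above it.

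The difference held at equal depth. With each barcode thinned to 1000 UMIs, which left out the 26 members of 4T1P and the 37 of 4T1M that had fewer, a Malat1 UMI remained in 28.1% of 4T1P and 45.3% of 4T1M members. Without thinning the shares were 33.2% and 55.8%. Among thinned deeper macrophages 86.5% and 91.2% kept one, and among thinned low-UMI neutrophils 100% and 99.7%. The mean thinned member held 2.88 Malat1 UMIs in 4T1P and 5.47 in 4T1M, against 13.1 and 16.1 in deeper macrophages and 52.6 and 46.0 in low-UMI neutrophils.

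The share of Malat1-poor macrophages changed over a range of depth and not at 2500 UMIs. In 4T1P it was 88.5% under 1000 UMIs, 92.6% from 1000 to 1500, 88.6% from 1500 to 2000 and 80.4% from 2000 to 2500, then 70.3% from 2500 to 5000, 25.7% from 5000 to 10000 and 3.31% from 10000 to 20000, each upper bound left out. In 4T1M it was between 69.7% and 88.3% in the bins below 2500 UMIs, 54.9% from 2500 to 5000, 8.44% from 5000 to 10000 and 0.792% from 10000 to 20000. Barcodes just above the limit therefore resembled members more than they resembled the deepest macrophages in this respect.

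**Figure D2:**
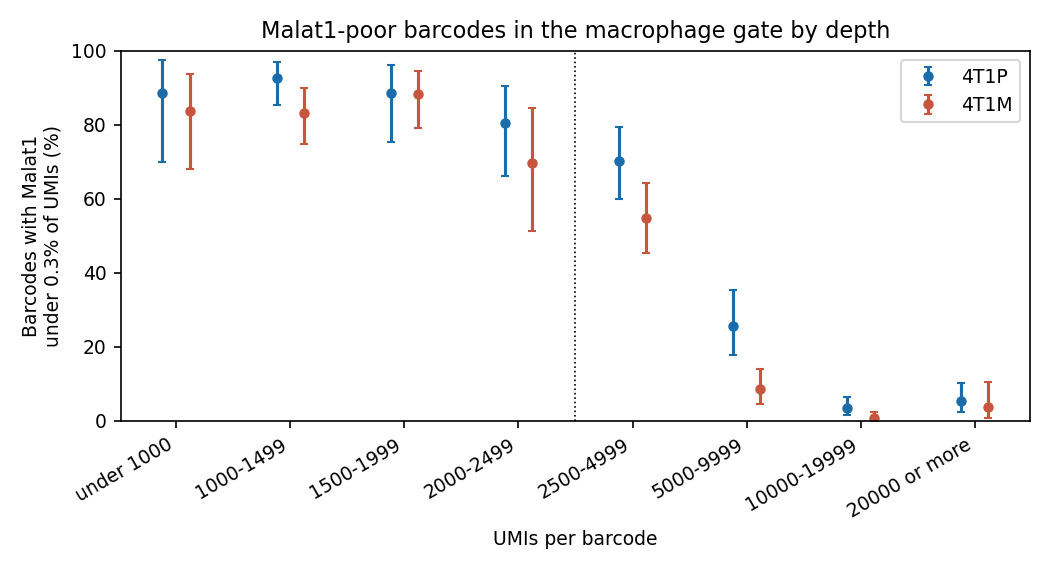
The percent of macrophage-gated barcodes with less than 0.3% of UMIs from Malat1 is plotted for 8 bins of total UMIs in each library, with exact 95% binomial intervals. The share lies between 69.7% and 92.6% in the bins under 2500 UMIs and between 0.792% and 5.37% in those from 10000 UMIs.

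In summed UMIs, Malat1 stood at 3746 CPM in 4T1P members and 5664 CPM in 4T1M members, against 13827 and 15614 CPM in deeper macrophages. The log2 ratio of members to deeper macrophages was -1.88 in 4T1P and -1.46 in 4T1M. A single 4T1P member carried 499 of the 1191 Malat1 UMIs of its class, and without it the 4T1P level was 2177 CPM. Neat1, the scaffold of nuclear paraspeckles, stood at 195 and 285 CPM in members and 1050 and 1068 CPM in deeper macrophages (log2 ratios -2.42 and -1.90). Xist, which coats the inactive X chromosome, was at 50.3 and 122 CPM against 562 and 997 CPM, and 14 of the 16 Xist UMIs of 4T1P members came from 1 barcode. Kcnq1ot1, a nuclear imprinting transcript, was at 6.29 and 13.6 CPM against 112 and 106 CPM. In neutrophil-gated barcodes Malat1 and Neat1 had the opposite sign. There Malat1 was at 50324 CPM in the low-UMI barcodes of 4T1P and 26854 CPM in the deeper ones (log2 ratio 0.91), and at 44836 and 27588 CPM in 4T1M (0.70). Xist was at 203 and 109 CPM in low-UMI and deeper neutrophils of 4T1P and at 245 and 238 CPM in those of 4T1M.

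Across the transcriptome, 2750 genes averaged at least 50 CPM over the 4 sums and were compared between members and deeper macrophages. A gene was counted as higher or lower where its level differed by more than 1.5-fold (0.58 on the log2 scale) in the same direction in both libraries. By that rule 274 genes (9.96%) were higher in members and 402 (14.6%) lower. Within single libraries 17.6% were higher and 21.2% lower in 4T1P, and 16.9% higher and 22.1% lower in 4T1M. The median log2 ratio over all 2750 genes was 0.07 in 4T1P and 0.04 in 4T1M. In the neutrophil gate 8.39% of 1489 genes were higher in low-UMI barcodes and 3.96% lower. Of the 259 genes lower in members that were also compared in neutrophils, 7 were lower there and 29 were higher. Of the 84 higher in members, 3 were higher in neutrophils and 3 lower. The 29 of 259 lie somewhat above the 8.39% of all genes and the other shares near or below background, and nothing is read from them.

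Of the 7 genes given as markers of the class, 4 were higher in both libraries by that rule: AY036118, Aif1, Prdx1 and Ccl12. Prdx1 was not past the fold in 4T1P with TMM factors (0.584) or in 4T1M at 5% mitochondrial UMIs (0.42) and without its top barcode (0.57), nor was Ccl12 in 4T1M at a limit of 3000 UMIs (0.55). AY036118 is a noncoding feature at chr17:39847113-39848035 on the minus strand (GRCm38), and all of its 923 bases are overlapped by Gm42418 on the plus strand. Both lie over a ribosomal RNA repeat. It stood at 1047 CPM in members and 422 CPM in deeper macrophages of 4T1P (log2 ratio 1.31, 1.15 to 1.47) and at 723 and 299 CPM in 4T1M (1.27, 1.08 to 1.45). It was the gene with the highest mean ratio among those of at least 100 CPM. At 1000 UMIs a barcode, 35.1% of 4T1P and 31.6% of 4T1M members had a UMI of it, against 21.3% and 16.1% of deeper macrophages. Without thinning the order turned around, with 41.2% and 34.1% of members and 72.1% and 62.2% of deeper macrophages. Gm42418, the more abundant feature on the other strand, was at 26204 and 17961 CPM in members and 17472 and 13199 CPM in deeper macrophages (log2 ratios 0.59 and 0.44) and was not past the fold in 4T1M.

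Aif1, an actin-bundling protein of macrophages, stood at 1010 CPM in members and 502 CPM in deeper macrophages of 4T1P and at 1120 and 594 CPM in 4T1M (log2 ratios 1.01 and 0.92). At 1000 UMIs, 56.8% and 59.9% of members had an Aif1 UMI and 37.3% and 42.2% of deeper macrophages. In low-UMI neutrophils, which should lack it, the share was 3.15% and 2.32%, and the median depths of those barcodes before thinning were 2053 and 1967 UMIs. Prdx1, a peroxide-reducing enzyme, was at 1189 against 764 CPM in 4T1P and 1511 against 965 CPM in 4T1M (0.64 and 0.65). Lgals1, the secreted lectin galectin-1, was at 1604 against 1078 CPM and 1473 against 830 CPM, with ratios of 0.57 and 0.83 of which that of 4T1P was just under the fold. It was past the fold in 4T1P too under 6 of 12 alternatives, with 0.67 at 1000 UMIs a barcode. Tmem176b, a membrane protein of myeloid cells, was at 182 against 132 CPM and 296 against 184 CPM (0.47 and 0.70). Its 4T1P ratio was past the fold with mitochondrial UMIs of at most 5% (1.095). Its 4T1M ratio was under it with barcodes that carry markers of other cell types left out (0.43). That last setting drops barcodes with at least 2 UMIs of such markers, whatever their depth. It removed 310 deeper macrophages and 7 members in 4T1P, and 482 and 23 in 4T1M. Values at that setting therefore mix depth with other cell types.

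The chemokine markers were the least even. Ccl8, which attracts monocytes and lymphocytes, stood at 1085 CPM in 4T1P members against 280 CPM in deeper macrophages (log2 ratio 1.95, 1.79 to 2.12), and at 247 against 243 CPM in 4T1M (0.04, -0.29 to 0.33). With barcodes that carry markers of other cell types left out, the 4T1M ratio was -0.61. Its 345 UMIs in 4T1P members sat in 20.9% of the barcodes, and 101 of them in 1 barcode, without which the level was 767 CPM. Ccl12, a monocyte attractant of mice, was at 742 against 333 CPM in 4T1P and at 446 against 275 CPM in 4T1M (1.16 and 0.70). Ccl8 was therefore not a mark of 4T1M members, whereas Ccl12 was higher in both.

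The other 11 of the 12 highest genes encode proteins, of which Atp5o, Atp5j, Atp5md and Ndufb4 belong to ATP synthase or the respiratory chain. Atp5o and Atp5j, subunits of ATP synthase, were at 368 and 532 CPM in 4T1P members against 162 and 243 CPM in deeper macrophages. In 4T1M they were at 326 and 489 CPM against 170 and 253 CPM. Ndufb4 of respiratory complex I was at 182 against 97.8 CPM in 4T1P and 215 against 93.8 CPM in 4T1M. The others among the 12 highest were Atp5md of ATP synthase, the mitochondrial ribosome protein Mrpl57, the cytosolic malate dehydrogenase Mdh1, the splicing core protein Snrpd3, the ribosome assembly factor Emg1, the chromatin-binding Banf1, the actin regulator Gmfg and the ribosomal protein Rps26. Thinned to 1000 UMIs, Mrpl57 and Gmfg were not past the fold in 4T1P (0.38 and 0.55). Rps26 had the highest CPM, at 3133 against 1646 CPM in 4T1P and 3408 against 1585 CPM in 4T1M.

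The 12 lowest genes included a cytokine, transporters, transcriptional regulators, a globin and noncoding RNAs. Tnf, the inflammatory cytokine, was at 164 CPM in members and 645 CPM in deeper macrophages of 4T1P and at 152 and 802 CPM in 4T1M (log2 ratios -1.97 and -2.39). Malt1, a protease of NF-kB signaling, was at 142 against 1006 CPM and 120 against 1297 CPM, with 25 of its 45 UMIs in 4T1P members in 1 barcode. Slc7a11, which imports cystine, was at 40.9 against 337 CPM and 73.4 against 365 CPM, and Slc38a1, a glutamine transporter, at 53.5 against 357 CPM and 46.2 against 382 CPM. Of the 27 Slc7a11 UMIs in 4T1M members 10 were in 1 barcode, without which the level was 46.2 CPM. Ifih1, a sensor of viral RNA, was at 40.9 against 292 CPM and 62.5 against 424 CPM. Nrip1, a co-repressor of nuclear receptors, Creb5, a transcription factor, and the predicted genes Gm14636 and Gm26917 completed most of the list. Inhba, a subunit of activin A, had 2 UMIs in 4T1P members (log2 ratio -4.58, -7.95 to -3.05) and 46 in 4T1M members, 26 of them in 1 barcode (-1.33). Hbb-bs, a globin of red cells, had the lowest mean ratio through single deeper barcodes: 2539 of its 2564 UMIs in deeper 4T1P macrophages were in 1 barcode, without which that level was 2.96 CPM, below the 15.7 CPM of members. In 4T1M 1 barcode held 1515 of 2850.

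**Figure D3:**
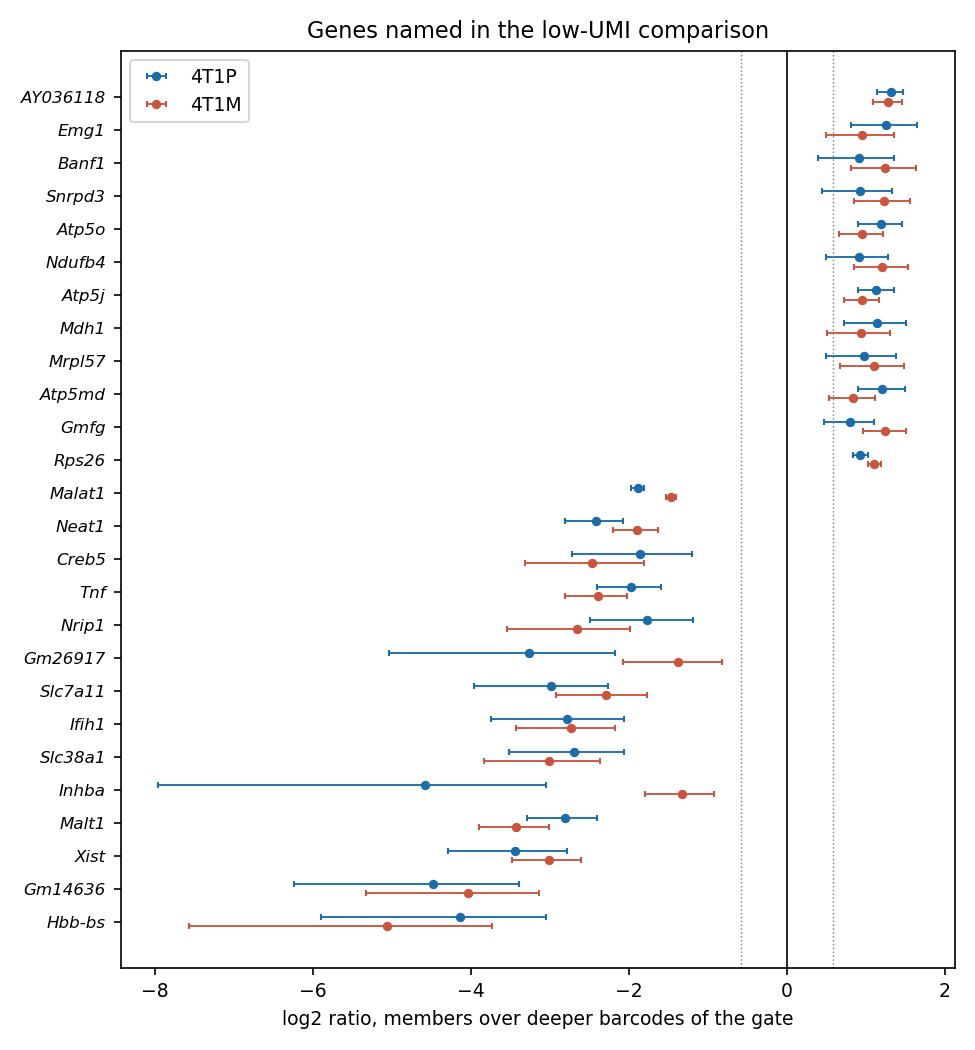
Log2 ratios of members to deeper macrophages (horizontal axis, CPM of summed UMIs) are shown for the 12 highest and 12 lowest genes of at least 100 CPM and for Malat1 and Neat1, in each library, with exact 95% intervals for counting error and dotted lines at 1.5-fold. The highest gene, AY036118, lies at 1.31 and 1.27, and Tnf lies at -1.97 and -2.39.

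Grouped by role, many nuclear-encoded respiratory chain genes were higher in members. Of 74 compared, 41 were higher in members and 0 lower, where 9.96% of all 2750 genes were higher and 14.6% lower. Their median log2 ratio was 0.73 in 4T1P and 0.65 in 4T1M. Their summed level was 25292 CPM in 4T1P members against 15824 CPM in deeper macrophages, and 24925 against 15957 CPM in 4T1M. In neutrophils 35 of these genes had median ratios of -0.20 and -0.14. The 13 respiratory chain genes encoded by the mitochondrial genome went the other way: 11 were lower in members and 0 higher, with medians of -0.99 and -0.80. mt-Co1, a subunit of cytochrome c oxidase, was at 4875 CPM in members against 11624 CPM in 4T1P and 6121 against 10651 CPM in 4T1M. The median mitochondrial share of UMIs was 2.01% in 4T1P and 1.87% in 4T1M members and 5.07% and 4.62% in deeper macrophages, all under the ceiling of 10% set by the filter.

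Cytosolic ribosomal protein genes had medians of 0.33 and 0.48, with 4 of 73 higher, below the 9.96% of all genes, and 0 lower. The actin and small cytosolic protein list had 3 of 20 higher, 0 lower and medians of 0.34 and 0.33. Tmsb4x, the actin-sequestering thymosin beta-4, was at 23990 against 14395 CPM in 4T1P and 27561 against 14714 CPM in 4T1M. Proliferation genes had 6 of 8 higher and 0 lower (medians 1.16 and 0.66, and 0.41 in 4T1M with barcodes that carry markers of other cell types left out). Among them Stmn1, a regulator of microtubules, was at 167 against 54.2 CPM and 122 against 47.1 CPM, and Top2a, the topoisomerase of dividing cells, at 135 against 31.6 CPM and 76.1 against 35.2 CPM. Mki67, the usual mark of cycling cells, was at 101 against 100 CPM in 4T1P and 70.7 against 118 CPM in 4T1M. Of the antioxidant list 3 of 15 genes were higher and 1 lower (0.33 and 0.29).

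Inflammatory genes made up the most uniformly lower group of proteins. Of 16 NF-kB and inflammatory cytokine genes 14 were lower in members and 0 higher, where 14.6% of all 2750 genes were lower and 9.96% higher. Their medians were -0.999 in 4T1P and -1.24 in 4T1M, while 13 of them in neutrophils had medians of -0.14 and -0.12. Cxcl2, a neutrophil attractant, was at 5268 CPM in members against 11832 CPM in 4T1P and 5632 against 13463 CPM in 4T1M. Ptgs2, the inducible cyclooxygenase, was at 264 against 1102 CPM and 288 against 1079 CPM. Il1b, which encodes interleukin-1 beta, was at 2409 against 3762 CPM and 3392 against 4661 CPM, with ratios of -0.64 and -0.46, and was not past the fold in 4T1M. Matrix and secreted proteins had 6 of 9 genes lower and 0 higher (-0.95 and -1.13), Fn1 of the gate among them. With barcodes that carry markers of other cell types left out, these medians were -0.32 and -0.46, under the fold. That setting removed far more deeper macrophages than members. The 4 nuclear-retained RNAs compared were lower, with medians of -2.93 and -2.37.

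The lists of macrophage functions are read against the 9.96% of all genes higher and 14.6% lower, and several lie near those shares. Macrophage identity genes outside the gate had 4 of 17 lower (Adgre1, Mrc1, Cd14 and Itgam) and 0 higher, with medians of -0.20 and -0.32 and a summed level of 14881 against 15725 CPM in 4T1P and 12182 against 14847 CPM in 4T1M. MHC class II genes, which present antigen, had 0 of 7 past the fold in either direction (0.09 and -0.32). Complement genes, which include C1qa, C1qb and C1qc of the gate, had 2 of 9 lower and 0 higher (-0.36 and 0.05), and resident-like macrophage genes 2 of 10 lower and 0 higher (-0.07 and 0.12). Monocyte genes had 4 of 10 lower (-0.64 and -0.65), with medians of -0.51 and -0.38 where the gate asked for at least 0.6% macrophage genes. In 4T1M the monocyte median was also under the fold at a limit of 2000 UMIs (-0.517), with DESeq2 size factors (-0.578) and with no filter on low genes (-0.498). In 4T1P it was under the fold at a limit of 3000 UMIs (-0.493). Lipid-associated genes, led by Apoe of the gate, had 3 of 12 lower and 1 higher (-0.36 and -0.43). Interferon response genes had 3 of 15 lower (-0.27 and -0.24), monocyte-attracting chemokines 2 of 9 lower and 1 higher (-0.21 and -0.38), and immediate-early genes 4 of 17 lower (-0.45 and -0.44). Heat shock genes had 3 of 10 lower and 1 higher (-0.21 and -0.38), and apoptosis genes 2 of 10 in each direction (-0.03 and -0.08). The 3 ribosomal RNA repeat features had medians of 0.59 and 0.44, with 1 higher and 1 lower, and of 1.27 and 0.74 with mitochondrial UMIs of at most 5%. At that setting the monocyte-attracting chemokines had a median of -1.05 in 4T1M.

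Genes that were higher in members had short transcripts. The median length of the longest annotated transcript was 1603 bases for the 274 higher genes, 4986 bases for the 402 lower genes and 2952 bases for all 2750. Divided into 5 equal parts by length, the shortest genes (204 to 1522 bases) had a median log2 ratio of 0.47 in 4T1P and 0.51 in 4T1M, and the longest (4995 to 93092 bases) of -0.58 and -0.57. Among the shortest, 132 genes were higher and 20 lower, and among the longest 9 were higher and 201 lower. In neutrophils the medians were 0.13 and 0.00 for the shortest genes and 0.35 and 0.29 for the longest. Length was taken from the annotation alone, and the end of the transcript that the kit read is not given in the sources used here.

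The members were not uniform. The 24 Malat1-rich members of 4T1P and the 42 of 4T1M held nearly all Malat1 UMIs of their classes, with 5.04% and 6.48% left to the Malat1-poor members. Malat1-poor and Malat1-rich members had median depths of 1305 and 1870.5 UMIs in 4T1P and 1418 and 1377 UMIs in 4T1M, so depth did not separate them in 4T1M. Their median mitochondrial shares were 1.84% and 3.77% in 4T1P and 1.55% and 3.51% in 4T1M. Since the division used Malat1 and the same barcodes, the following values describe it and support nothing beyond it.

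Neat1 followed the division in both libraries, and Xist did so in 4T1M. Neat1 was at 36.2 CPM in Malat1-poor members of 4T1P, 1241 CPM in Malat1-rich members and 1126 CPM in deeper Malat1-rich macrophages. In 4T1M the values were 26.4, 1501 and 1105 CPM. Xist was at 3.62, 358 and 610 CPM in 4T1P and at 9.89, 650 and 1040 CPM in 4T1M, where the Malat1-poor level rested on 3 UMIs, and in 4T1P on 1. The 358 CPM of 4T1P rested on 15 UMIs, and 14 of the 16 Xist UMIs of 4T1P members were in 1 barcode. Malat1-rich members thus had Neat1 near the deeper level in 4T1P and above it in 4T1M (log2 ratios 0.15 and 0.45, the latter 0.14 to 0.73), and Malat1-poor members had hardly any. At 1000 UMIs a barcode, the mean low-UMI neutrophil held 4.76 Neat1 UMIs in 4T1P and 3.84 in 4T1M, against 0.141 and 0.226 in members. Neutrophil markers were higher in Malat1-rich members, as given below, and the part of neutrophil RNA in their Neat1 level was not tested.

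The respiratory chain list followed the same division in the opposite direction. It summed to 27085 CPM in Malat1-poor and 13483 CPM in Malat1-rich members of 4T1P and to 27197 and 14255 CPM in 4T1M, with deeper Malat1-rich macrophages at 15128 and 15494 CPM. The mitochondrially encoded genes summed to 24371 and 39828 CPM in Malat1-poor and Malat1-rich members of 4T1P and to 26274 and 37054 CPM in 4T1M, below the 54780 and 48879 CPM of deeper Malat1-rich macrophages. NF-kB and inflammatory genes had median ratios of -1.21 and -1.75 between Malat1-poor and Malat1-rich members, and ribosomal protein genes of 0.89 and 0.94, where the medians of all genes were -0.11 and -0.01. Neutrophil markers moved with this division, as given below. Low-UMI neutrophils summed to 51513 and 63538 CPM for the NF-kB list, 27277 and 23887 CPM for ribosomal proteins and 4953 and 4984 CPM for the respiratory chain, and the part of neutrophil RNA in these ratios was not tested. Tnf was at 141 CPM in Malat1-poor and 310 CPM in Malat1-rich members of 4T1P and at 109 and 356 CPM in 4T1M. Between Malat1-rich members and deeper Malat1-rich macrophages the median ratios were small for the respiratory chain (-0.12 and -0.09) and larger for MHC class II (-0.51 and -1.28). The length pattern followed too: from the shortest to the longest genes, the medians of Malat1-poor members over deeper Malat1-rich macrophages went from 0.58 to -0.84 in 4T1P and from 0.64 to -0.83 in 4T1M, and those of Malat1-rich members from -0.03 to 0.22 and from -0.15 to 0.11.

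**Figure D4:**
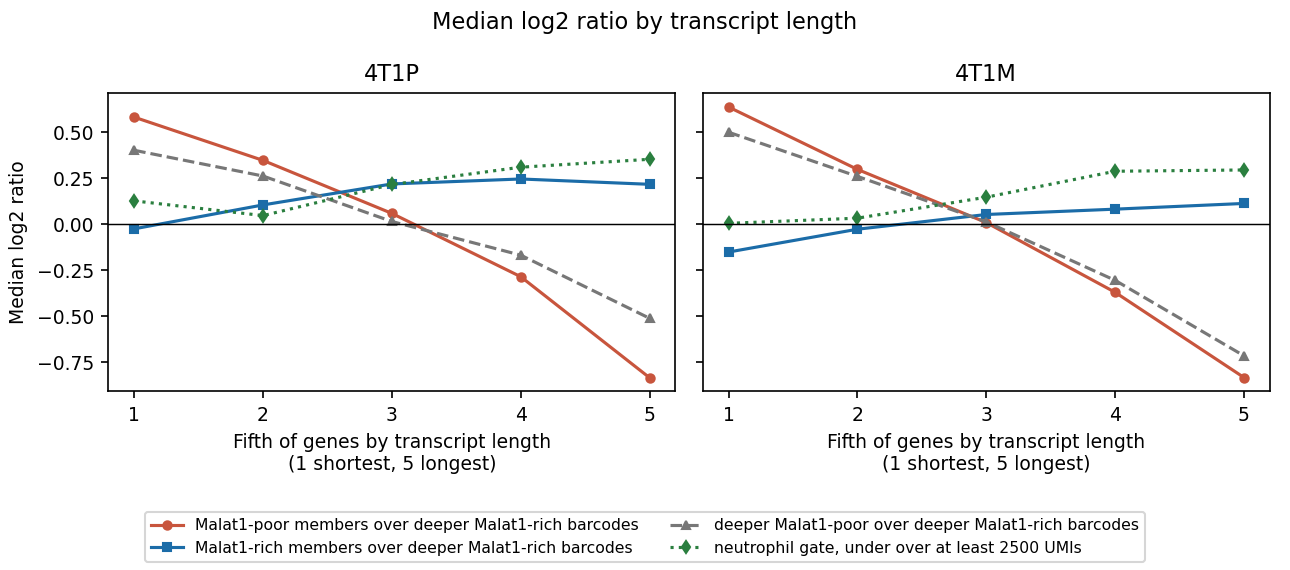
Median log2 ratios over 2750 genes are plotted for 5 equal parts of the genes from the shortest to the longest annotated transcript. They compare Malat1-poor and Malat1-rich macrophage-gated barcodes of each library. A further line gives neutrophil-gated barcodes under 2500 UMIs over deeper ones, for 1489 genes. The lines of Malat1-poor barcodes over deeper Malat1-rich barcodes fall with length (0.58 to -0.84 for 4T1P members), while that of Malat1-rich members stays between -0.03 and 0.25 in 4T1P and between -0.15 and 0.11 in 4T1M.

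Deeper macrophages that were poor in Malat1 were near Malat1-poor members in some values and not in others. They had median depths of 4118 UMIs in 4T1P and 3574 in 4T1M, a median mitochondrial share of 2.05% in each library, and summed respiratory chain levels of 23410 and 25658 CPM. Between Malat1-poor members and these barcodes the median ratios of the respiratory chain list were 0.23 and 0.09, against 0.88 and 0.82 between Malat1-poor members and deeper Malat1-rich macrophages. Lgals1 was at 1871 CPM in the deeper Malat1-poor barcodes of 4T1P and 1710 CPM in Malat1-poor members, and at 1252 and 1625 CPM in 4T1M. Mitochondrially encoded genes summed to 39333 and 33031 CPM in these deeper barcodes against 24371 and 26274 CPM in Malat1-poor members. The nuclear-retained list, which holds Malat1, had medians of -2.61 and -2.60 between Malat1-poor members and these barcodes. Ccl8 was at 292 CPM in the deeper Malat1-poor barcodes of 4T1P and 1167 CPM in Malat1-poor members, and at 196 (155 to 243) and 284 CPM (227 to 350) in 4T1M.

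AY036118 differed little between Malat1-poor and Malat1-rich members but followed the division among deeper macrophages. It stood at 1072 CPM in Malat1-poor and 883 CPM in Malat1-rich members of 4T1P and at 735 and 666 CPM in 4T1M, against 347 and 283 CPM in deeper Malat1-rich and 1245 and 643 CPM in deeper Malat1-poor macrophages. The log2 ratio of Malat1-rich members to deeper Malat1-rich macrophages was 1.37 (0.84 to 1.82) in 4T1P and 1.25 (0.76 to 1.67) in 4T1M. Neutrophil genes were higher in Malat1-rich members, summing to 5011 CPM in 4T1P and 10076 CPM in 4T1M against 902 and 1418 CPM in Malat1-poor ones. S100a9 was at 1217 and 2384 CPM in Malat1-rich and 362 and 607 CPM in Malat1-poor members. The part of neutrophil RNA in the Malat1 level of those members was not tested.

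Between the tumors, 2636 genes averaged at least 50 CPM over the members of both libraries, and 198 (7.51%) were more than 1.5-fold higher in 4T1M members and 294 (11.2%) lower. The median log2 ratio of 4T1M to 4T1P was -0.04 in members and -0.02 in deeper macrophages. In deeper macrophages, with many more UMIs, 2.73% of 2750 genes were past the fold upward and 1.20% downward. Of the genes past the fold in members, 42 of the 198 and 27 of the 294 were past it in the same direction in deeper macrophages. Differences between tumor, pool of mice and library cannot be told apart here.

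Genes higher in 4T1M members were led by Plac8, a small cysteine-rich protein of monocytes and granulocytes. It stood at 25.2 CPM in 4T1P members and 310 CPM in 4T1M members (log2 ratio 3.54, 2.60 to 4.87), with a ratio of 1.66 in deeper macrophages. It was at 183 and 337 CPM in low-UMI neutrophils. G0s2, an inhibitor of lipolysis that is high in neutrophils, was at 40.9 and 226 CPM (2.42), and in 4T1M it was at 1161 CPM in Malat1-rich and 26.4 CPM in Malat1-poor members. The neutrophil list as a whole had 7 of 9 genes higher in 4T1M members and 0 lower (median 1.04, 0.83 in deeper macrophages), and its part in these genes was not tested. Irf7, a transcription factor of the interferon response, was at 84.9 and 236 CPM (1.46, and 1.59 in deeper macrophages).

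Single barcodes held large parts of the UMIs of Lyz1 and Ccl5. Lyz1, a lysozyme, was at 25.2 and 242 CPM, with its 89 UMIs in 4T1M members in 7 barcodes and 42 of them in 1, without which the level was 128 CPM. Its ratio was 3.19 in members and -1.06 in deeper macrophages. Ccl5, a chemokine that attracts T cells, was at 192 and 576 CPM, but 127 of 212 UMIs in 4T1M and 29 of 61 in 4T1P were in 1 barcode each, and without these the levels were 101 CPM in 4T1P and 231 CPM in 4T1M. With mitochondrial UMIs of at most 5% its log2 ratio was -0.28, the opposite direction. AA467197 was at 56.6 and 242 CPM (2.06, and 1.13 in deeper macrophages), with at most 8 of its 89 UMIs in 4T1M members in 1 barcode.

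Genes lower in 4T1M members included several of mature and resident-like macrophages. F13a1, the A subunit of coagulation factor XIII, was at 381 CPM in 4T1P and 81.5 CPM in 4T1M members (log2 ratio -2.21, -2.85 to -1.64) and had a ratio of -1.67 in deeper macrophages. Mrc1, the mannose receptor, was at 362 and 136 CPM (-1.40, and -0.99 in deeper macrophages). Ccl8 was at 1085 and 247 CPM (-2.13, and -0.21 in deeper macrophages). Ms4a7, a membrane protein of mature macrophages, was at 226 and 78.8 CPM (-1.51, and -0.33 in deeper macrophages), Ahnak, a giant scaffold protein, at 359 and 139 CPM, and Timp2, a metalloproteinase inhibitor, at 293 and 133 CPM. The ratios of Ccl8 and Ms4a7 were thus far smaller in deeper macrophages, a difference that was not tested.

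**Figure D5:**
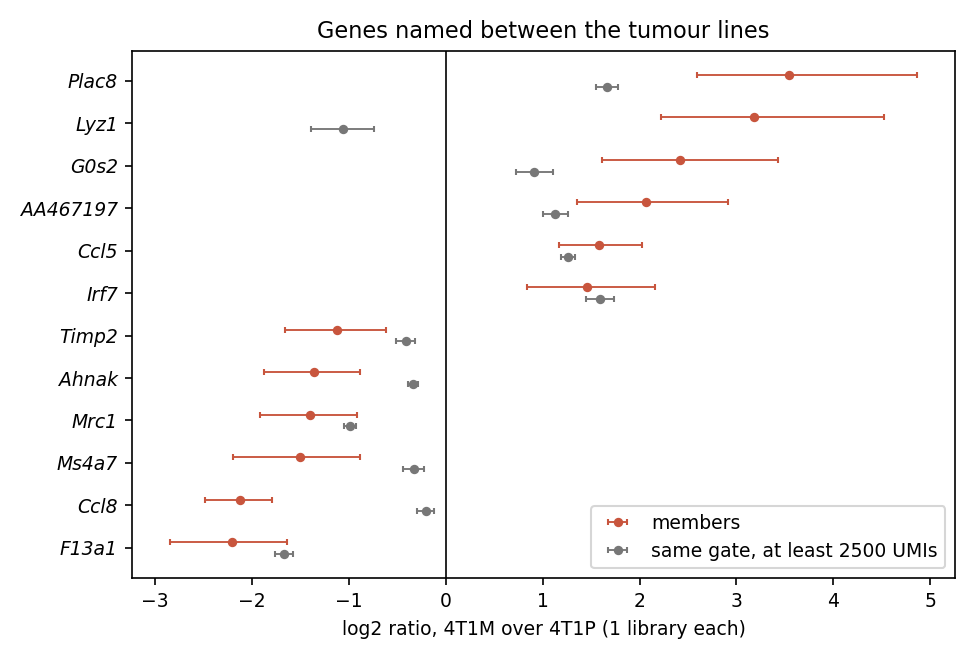
Log2 ratios of 4T1M to 4T1P (CPM of summed UMIs, exact 95% intervals for counting error) are shown for 12 genes, 6 from either end of the ranking in members, for members and for deeper macrophages. Plac8, Irf7, F13a1 and Mrc1 lie on the same side of 0 in both depth classes, Ccl8 is at -2.13 in members and -0.21 in deeper macrophages, and Lyz1 has opposite signs.

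The lists are set beside the 7.51% of all genes higher and 11.2% lower in 4T1M members. Resident-like macrophage genes had 10 of 10 lower in 4T1M members, with a median of -1.04 and of -1.25 in deeper macrophages. Ccl24, an eosinophil-attracting chemokine of that list, was at 453 and 209 CPM. Interferon response genes had 7 of 14 higher and 1 lower, with a median of 0.66 in members and 0.90 in deeper macrophages. In members the median was 0.52 at 5% mitochondrial UMIs and 0.41 without barcodes that carry markers of other cell types, both under the fold. Isg15, a ubiquitin-like protein induced by interferon, was at 274 and 541 CPM in members. Monocyte-attracting chemokines had 2 of 9 higher and 6 lower, with medians of -0.84 in members and -0.12 in deeper macrophages. Proliferation genes had 3 of 10 lower and 0 higher (-0.54, and 0.03 in deeper macrophages). MHC class II genes and mitochondrially encoded genes had 0 of 7 and 0 of 11 past the fold, and respiratory chain genes 0 of 74 higher and 3 lower. The medians of the resident-like and interferon lists thus had the same sign in members and in deeper macrophages.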

How the data were processed

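The authors aligned reads to mm10 (GRCm38) and deposited UMI counts per gene and barcode, 1 filtered matrix for each library (Cell Ranger 4.0.0 by the submitters' processing notes and the file header). Counts were used as deposited, with 0 columns of per-sample values left out. The members and gene lists were chosen with earlier results of these data known. UMIs were summed over the barcodes of each class, giving 317928 and 367911 UMIs for members of 4T1P and 4T1M and 8449282 and 8975404 for deeper macrophages, and expressed as CPM. A gene at 100 CPM thus rests on 31.8 and 36.8 UMIs in members. Log2 ratios added 0.5 UMIs to each sum. Genes under a mean of 50 CPM were not compared. With 1 library per condition no p-value was computed, and called means past 1.5-fold. Genes named were the 7 given markers, the gate genes, the 12 highest and 12 lowest of 1423 genes of at least 100 CPM by mean ratio, the 6 highest and lowest between tumors, and examples from the lists (macrophage, complement, monocyte, resident-like, chemokine, interferon, MHC class II, lipid, antioxidant, actin, ribosomal protein, mitochondrial, respiratory chain, ribosomal RNA, nuclear-retained, immediate-early, heat shock, NF-kB, apoptosis, proliferation, matrix, and markers of other cell types). Examples within lists and the Malat1 limits were chosen after values were seen. Thinning drew 1000 UMIs per barcode without replacement. Doublets were left in, and an alternative removed those with the highest Scrublet scores (0.8% per 1000 barcodes). Transcript lengths came from the reference annotation of GRCm38. Scripts were tested on simulated data. Tools were Python 3.11.15, numpy 2.4.6, scipy 1.17.1, scanpy 1.11.5, matplotlib 3.10.9, R 4.3.3, and for scaling factors edgeR 4.0.16 and DESeq2 1.42.0. The list genes Gm26870 and Mx1 matched no feature by symbol and were left out. Some genes and 1 list are not reported here.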

Additional observations from a re-analysis of the deposited data

Results flagged for a closer look

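In both libraries, 5 named genes had ratios past 1.5-fold in opposite directions in the macrophage and neutrophil gates. They are among 29 of 259 genes lower in members and higher in low-UMI neutrophils and 3 of 84 with the reverse, where 8.39% of all genes compared in neutrophils were higher and 3.96% lower. The differences between the gates were not tested. Malat1 had log2 ratios of low-UMI to deeper barcodes of -1.88 in 4T1P and -1.46 in 4T1M macrophages, and of 0.91 and 0.70 in neutrophils. Neat1 had ratios of -2.42 and -1.90 in macrophages and of 1.28 and 1.08 in neutrophils. The stress-induced chaperones Hspa1a and Hspa1b, near-identical copies whose reads can be shared, had ratios of -0.80 and -0.82 (Hspa1a) and -0.76 and -0.79 (Hspa1b) in macrophages. In neutrophils Hspa1a had ratios of 3.23 and 1.98 (4T1P and 4T1M) and Hspa1b of 2.996 and 1.55. Retnlg, a secreted protein of neutrophils, went the other way, with 2.27 and 1.39 in macrophages and -1.49 and -1.42 in neutrophils. Its level in members rested on 35 UMIs in 4T1P, 13 of them in 1 barcode, and 34 in 4T1M, and was higher in Malat1-rich members (620 and 341 CPM) than in Malat1-poor ones (32.6 and 39.6 CPM).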

How the results depend on the processing

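No paired analysis of 4T1M against 4T1P was possible because each condition was 1 library. Members and deeper macrophages were compared within each library, and that comparison was not tested. Over 12 alternative settings, 147 of 158 values of the main comparisons stayed within their limits. The share of members in macrophage-gated barcodes was 20.7% (4T1P) and 22.1% (4T1M) at a limit of 2000 UMIs, 29.2% in 4T1M at 3000, and 37.4% and 31.5% with mitochondrial UMIs of at most 5%. Leaving out barcodes with at least 2 UMIs of other cell type markers, which removed 310 and 482 deeper macrophages but 7 and 23 members, it was 42.4% and 48.0%. A limit in UMIs is passed more often by deeper barcodes, so these last shares also reflect depth. With no filter on low genes, 1282 genes were higher and 1119 lower in members, and 1429 were higher and 1987 lower in 4T1M. Of 1560 values of single genes and lists 1522 stayed on their side of the fold. Ccl5 turned to -0.28 (log2, 4T1M to 4T1P) with mitochondrial UMIs of at most 5%, and Hbb-bs in 4T1P to 2.15 (members to deeper) with the marker-bearing barcodes left out. Hbb-bs is itself on the erythroid marker list, so that turn is no separate check of it. In alternatives chosen after seeing the data, leaving out the barcode with the most UMIs of a gene kept 74 of 76 ratios on their side, turned Hbb-bs in 4T1P to 2.23 and took Prdx1 in 4T1M to 0.57. Malat1 limits of 0.2% and 0.5% gave 87.7% and 91.5% Malat1-poor members in 4T1P and 80.3% and 84.7% in 4T1M. Other scalings moved the median of all genes by at most 0.09 on the log2 scale. Members' sums are small, so a gene at 0 UMIs may reach 9.44 CPM in 4T1P and 8.15 CPM in 4T1M.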

Other observations

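Macrophage-gated barcodes that the filters left out bordered on the members on either side. Those under 500 genes numbered 155 in 4T1P and 258 in 4T1M. They had Malat1 at 4700 and 6525 CPM, Neat1 at 86.5 and 322 CPM, Xist at 106 and 102 CPM and AY036118 at 1528 and 672 CPM. Malat1 in these was near the 3746 and 5664 CPM of members. Those under 2500 UMIs with more than 10% mitochondrial UMIs numbered 42 in 4T1P and 66 in 4T1M, with a median mitochondrial share of 19.2% and 19.3%. They had Malat1 at 41587 and 40216 CPM, Neat1 at 1587 and 1695 CPM and Xist at 1347 and 2243 CPM, above the levels of members and of deeper macrophages. Aif1 stood at 373 and 449 CPM and Lgals1 at 574 and 502 CPM in these, below the levels of members.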
